A study of Mus musculus with 4 samples.

Results

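Transcripts of 9 genes of arginine and polyamine metabolism were examined in ILC2, the group 2 innate lymphoid cells that live in tissues and answer alarm signals with type 2 cytokines. The 9 genes were chosen by symbol, with earlier results of these data known, and were Arg1, Odc1, Oaz1, Oaz2, Azin1, Srm, Sms, Sat1 and Amd1, and each had 1 row among the 15835 genes of the deposited count table. The ILC2 came from the pancreatic islets of fasted mice and of fed mice, all labelled C57BL/6j with no other allele or agent, and the comparison asks how fasting changes genes tied to ILC2 function. Each group held 4 libraries, numbered 1, 3, 4 and 5 after their column names. The length of the fast, the age and sex of the mice, the sorting of the cells and whether each library came from separate mice are not given in the sources used here, so the p-values rest on the spread among these libraries alone, and some of it may be technical.

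Arginase 1 splits arginine into urea and ornithine, and ornithine decarboxylase, encoded by Odc1, turns ornithine into putrescine, the first polyamine. Spermidine synthase (Srm) and spermine synthase (Sms) extend putrescine with aminopropyl groups that come from S-adenosylmethionine after decarboxylation by the enzyme encoded by Amd1, while spermidine/spermine acetyltransferase (Sat1) marks polyamines for breakdown or export. Antizymes, encoded by Oaz1 and Oaz2, bind ornithine decarboxylase and deliver it to the proteasome, and the antizyme inhibitor Azin1, a relative of the decarboxylase without its activity, binds antizyme in turn. In mouse lung ILC2, Arg1 is expressed in the resting state and is known to sustain proliferation and glycolysis.

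The antizyme messengers carry a recoding site that links the members to polyamine levels: ribosomes reach a stop codon early in the reading frame, and high polyamines raise the share that slips forward by a single base and makes full-length antizyme. The stretch around that site is shown for both antizymes because it is the control element that the 2 measured messengers share. Both were read from mouse transcripts of GENCODE vM21, which is on mm10, the build that the submitters' processing notes name, with the codon before the stop and the stop codon in capitals.

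Oaz1: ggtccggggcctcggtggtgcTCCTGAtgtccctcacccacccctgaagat
Oaz2: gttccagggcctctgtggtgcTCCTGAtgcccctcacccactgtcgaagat

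The 51 bases were identical at 43 positions. In 3 of the 6 coding models of Oaz1 and 2 of the 4 of Oaz2 in GENCODE, this stretch is present with the first base of the stop codon left out, which is how the annotation writes the shift. Counts of messenger RNA do not show how often ribosomes slip, so the values that follow describe the messengers alone.

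Library totals ran from 2041697 to 9366807 counts in fasted and from 1797504 to 25252366 counts in fed libraries. The 9 genes together took from 0.0357% to 0.150% of the counts of a fasted library and from 0.0404% to 0.0778% of those of a fed library. All 15 ILC2 markers had counts, led by Thy1 and Klrg1 with means of 1378 and 435 counts per 1000000 (CPM) of library totals, but the ILC2 transcription factor gene Rora had only 6 counts in all. Much of the RNA was from acinar cells, which surround the islets and make digestive enzymes: 22 acinar markers, led by the carboxypeptidase gene Cpa1 and the chymotrypsinogen gene Ctrb1, took 2.30% and 2.59% of counts in fasted libraries 1 and 3, 49.4% and 52.5% in fasted libraries 4 and 5, and from 29.7% to 52.3% in fed libraries. Pancreas tissue uses polyamine enzymes too, and the part of acinar RNA in the values below was not tested. Levels below are CPM over library sizes scaled by the trimmed mean of M-values (TMM), as mean ± SD, and a difference is the log2 fold change of fasted over fed. Its standard error (SE) was derived from edgeR's quasi-likelihood test, as the absolute log2 fold change over the square root of the F statistic. The 95% intervals were built from that SE and a t quantile.

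None of the 8 genes that could be tested passed the test between fasted and fed ILC2, and how large a difference each could still hold is given by its interval. Of these, 5 had a positive and 3 a negative log2 fold change, with a median of 0.07, against 3835 positive and 3865 negative and a median of -0.00 over all 7700 genes tested. By edgeR 0 of the 8 were called higher and 0 lower at a Benjamini-Hochberg adjusted p under 0.05, where 0% of all tested genes were called in each direction. At an unadjusted p under 0.05 by edgeR, 0 of the 8 passed, where 4.39% of all tested genes did (2.77% higher and 1.62% lower in fasted libraries). DESeq2 called 0 of the 8, against 0.11% of the 7240 genes to which it gave an adjusted p, limma-voom also called 0, and 0 of the 8 had an unadjusted p under 0.05 by either tool, where 4.58% of all tested genes did by DESeq2 and 9.47% by limma-voom. Fasted and fed libraries overlapped for each of the 8 genes, while they did not overlap for 3.52% of all tested genes (2.21% higher and 1.31% lower in fasted libraries). The ninth gene, Amd1, had too few counts to test. In bulk RNA such as this, fewer cells that hold a transcript and less of it per cell cannot be told apart.

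**Figure D1:**
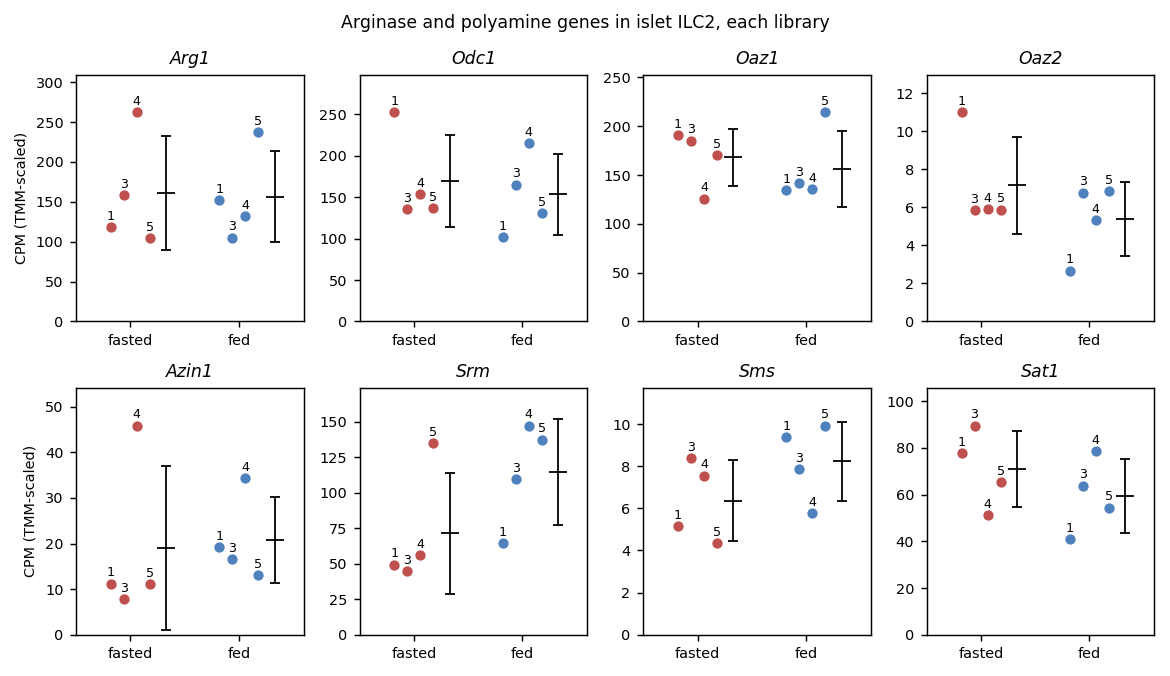
Level of each tested gene in every library, in CPM over TMM-scaled library sizes on a linear axis from 0. Numbers name the libraries, bars to the right of each group are the mean and SD of its 4 libraries, and the fasted and fed points overlap in every panel.

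Arg1, the arginase that supplies ornithine, was abundantly detected in both groups and lies on chromosome 10 at 24915221 to 24927484 on the minus strand of mm10. It stood at 119, 158, 262 and 105 CPM in fasted libraries 1, 3, 4 and 5, against 152, 105, 132 and 237 CPM in fed libraries 1, 3, 4 and 5. One library in each group was high, number 4 among the fasted and number 5 among the fed, and the other 6 lay between 105 and 158 CPM. Arg1 averaged 161 ± 71.2 CPM in fasted and 156 ± 57.2 CPM in fed libraries (SD, n = 4 each), and the log2 fold change was 0.04 with an SE of 0.34 (edgeR, Benjamini-Hochberg adjusted p = 1.00). The 95% interval of the fasted over fed ratio ran from 0.617 to 1.72, so these libraries did not resolve changes within those bounds. The sign rested on single libraries: without fasted library 4 the log2 fold change was -0.31, and without fed library 5 it was 0.32.

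Macrophages are another known source of Arg1, so their markers were measured beside it. The summed level of 13 macrophage and monocyte markers, led by the complement gene C1qb, was 134, 25.5, 8.29 and 7.69 CPM of library totals in fasted libraries 1, 3, 4 and 5, against 21.7, 4.95, 2.81 and 2.86 CPM in fed libraries 1, 3, 4 and 5. Fasted library 1 was far above the rest, and within each pair of the same number the fasted library was higher. Csf1r, which encodes the growth factor receptor of macrophages, had 50 counts in the fasted and 0 in the fed libraries. The log2 difference of the sums was 1.89 (exact two-sided permutation test over 70 assignments, p = 0.17, or 0.34 adjusted over 8 marker lists). By the same test the other 7 lists had adjusted p-values of 0.57 for ILC2, 0.53 for acinar, 0.34 for islet endocrine, 0.56 for neutrophil, 0.34 for T cell, 0.23 for B cell markers, and 0.41 for those of basophils, eosinophils and mast cells. These permutations ignored the library numbers. Within pairs of the same number, markers of macrophages and monocytes, of T cells and of B cells were higher in the fasted library in 4 of 4 pairs. So were those of basophils, eosinophils and mast cells. ILC2 markers were also higher in the fasted library in 3 of 4 pairs, neutrophil markers in 2 of 4 and acinar markers in 1 of 4. All these sums are shares of library totals, so a library with less acinar RNA has larger shares of other RNA. The part of this in the pair counts was not tested. The summed islet endocrine markers were lower in the fasted library in 4 of 4 pairs. That islet sum was led by Ttr, with 622 counts in fasted and 2818 in fed libraries, and Pcsk1, with 114 and 292. The insulin genes went the other way, with 51 fasted and 5 fed counts for Ins1 and 80 and 21 for Ins2. B cell markers did not overlap between the groups, at 4.34 to 7.35 CPM of library totals in fasted and 0.854 to 3.34 CPM in fed libraries. The part of other cells in the level of Arg1 was not tested.

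Odc1, the decarboxylase that starts polyamine synthesis, lies on chromosome 12 at 17544794 to 17551505 on the plus strand. It stood at 253, 136, 154 and 137 CPM in fasted libraries 1, 3, 4 and 5, against 102, 165, 216 and 131 CPM in fed libraries 1, 3, 4 and 5. Library 1 was the highest of the fasted group and the lowest of the fed group, and 3 of the fasted libraries lay within the fed range. The means were 170 ± 55.8 CPM in fasted and 153 ± 49.0 CPM in fed libraries (SD, n = 4 each), and the log2 fold change was 0.15 with an SE of 0.29 (edgeR, Benjamini-Hochberg adjusted p = 1.00) with a 95% interval of the ratio from 0.711 to 1.72. Without fasted library 1 the log2 fold change was -0.11, and without fed library 4 it was 0.35. Of 451 windows of 50 bases in the last 500 bases of its transcript, where this 3' end method reads, 80 also occur in the pseudogene transcript Gm7993, so part of its signal could be split by the counting.

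Oaz1, the most widely expressed antizyme, lies on chromosome 10 at 80826656 to 80829290 on the plus strand. It stood at 191, 185, 126 and 170 CPM in fasted libraries 1, 3, 4 and 5, against 134, 142, 136 and 214 CPM in fed libraries 1, 3, 4 and 5. Fasted libraries 1, 3 and 5 exceeded 3 of the fed ones, but fed library 5 was the highest of all and fasted library 4 the lowest. The log2 fold change was 0.10 ± 0.23 (SE; edgeR, Benjamini-Hochberg adjusted p = 1.00), with a 95% interval of the ratio from 0.754 to 1.53. Its 3' end shares 165 of 451 windows with the pseudogene Oaz1-ps, and the sources used here do not say how such reads were counted.

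Oaz2, the second antizyme, on chromosome 9 at 65668001 to 65690300 on the plus strand, was scarce, with 140 counts in all fasted and 148 in all fed libraries. It stood at 10.99, 5.85, 5.90 and 5.88 CPM in fasted libraries 1, 3, 4 and 5, against 2.68, 6.77, 5.32 and 6.85 CPM in fed libraries 1, 3, 4 and 5. Library 1 again was the highest of the fasted and the lowest of the fed libraries, and the other 6 lay between 5.32 and 6.85 CPM. The fed library 1 value rests on 6 counts. The log2 fold change was 0.38 ± 0.44 (SE; edgeR, Benjamini-Hochberg adjusted p = 1.00), and 0.10 without fasted library 1.

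Azin1, the antizyme inhibitor, varied widely between libraries, and it lies on chromosome 15 at 38487427 to 38519266 on the minus strand. It stood at 11.2, 7.81, 45.9 and 11.2 CPM in fasted libraries 1, 3, 4 and 5, against 19.2, 16.6, 34.4 and 13.0 CPM in fed libraries 1, 3, 4 and 5. Library 4 was the highest in both groups, and the other 3 fasted libraries lay below all 4 fed ones. The log2 fold change was -0.14 ± 0.56 (SE; edgeR, Benjamini-Hochberg adjusted p = 1.00), with a 95% interval of the ratio from 0.386 to 2.13. Without fasted library 4 it was -1.07 ± 0.40 (SE; edgeR, adjusted p = 0.60), and without fed library 4 it was 0.23. It was also positive without fasted library 1, 3 or 5, at 0.04, 0.12 and 0.04. With acinar-poor fasted libraries 1 and 3 left out it was 0.46 ± 0.55, so the direction changed with the libraries kept.

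**Figure D2:**
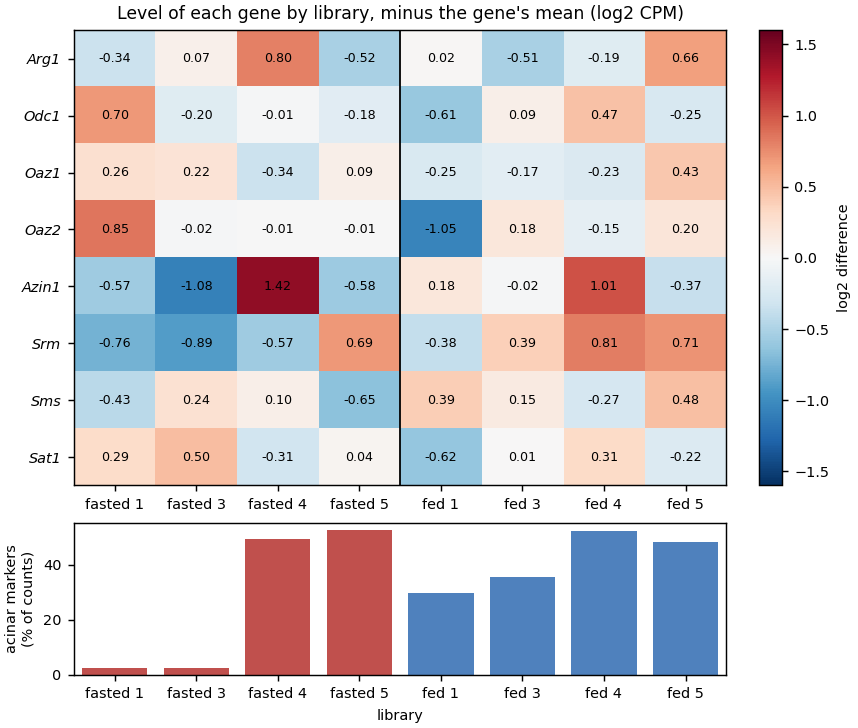
Log2 level of each tested gene in every library minus the mean of that gene over the 8 libraries (top, red above and blue below the mean), and the share of counts from 22 acinar markers (bottom). Azin1 was highest in library 4 of both groups, and Srm was low in fasted libraries 1, 3 and 4.

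Srm, spermidine synthase, had the largest difference among the 8 genes, though it was not called. It lies on chromosome 4 at 148591503 to 148594993 on the plus strand. It stood at 49.4, 44.9, 56.2 and 135 CPM in fasted libraries 1, 3, 4 and 5, against 64.2, 109, 147 and 137 CPM in fed libraries 1, 3, 4 and 5. Fasted libraries 1, 3 and 4 lay below all fed ones, and fasted library 5 lay in the upper part of the fed range. The means were 71.4 ± 42.7 CPM in fasted and 115 ± 37.2 CPM in fed libraries (SD, n = 4 each), and the log2 fold change was -0.68 with an SE of 0.39 (edgeR, Benjamini-Hochberg adjusted p = 1.00). The 95% interval of the ratio ran from 0.345 to 1.12.

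Within each pair of the same library number Srm was lower in the fasted library, with log2 differences of -0.38, -1.28, -1.38 and -0.03 for numbers 1, 3, 4 and 5, while each of the other 7 genes had pairs in both directions. With the number as a replicate block the log2 fold change was -0.77 ± 0.27 (SE; edgeR, unadjusted p = 0.0215, Benjamini-Hochberg adjusted p = 0.71), and Srm was the 1 gene of the 8 with an unadjusted p under 0.05 in that fit, where 6.95% of all tested genes had one. The value depended on single libraries, at -1.20 without fasted library 5 and -0.53 without fasted library 3. Without fasted libraries 1 and 3, which were poor in acinar RNA, it was -0.27 ± 0.43, and with the acinar marker level as a covariate -0.28 ± 0.36.

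Sms, which makes spermine, was scarce and lies on chromosome X at 157443855 to 157492287 on the minus strand. It stood at 5.15, 8.39, 7.56 and 4.36 CPM in fasted libraries 1, 3, 4 and 5, against 9.37, 7.85, 5.76 and 9.93 CPM in fed libraries 1, 3, 4 and 5. Fasted libraries 1 and 5 lay below all fed ones, and the remaining libraries were mixed. The log2 fold change was -0.35 ± 0.40 (SE; edgeR, Benjamini-Hochberg adjusted p = 1.00), with a 95% interval of the ratio from 0.428 to 1.43.

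Amd1, which provides the aminopropyl donor for both synthases, could not be measured. It lies on chromosome 10 at 40287458 to 40302186 on the minus strand and had 1 count in the fasted libraries and 2 in the fed libraries, fewer than the 3 counts that a count of 0 allows. That limit lay, per library, between 0.553 and 0.702 CPM in fasted and between 0.222 and 1.34 CPM in fed libraries, and covers counting error only. Of the 451 windows at its 3' end, 445 also occur in the transcript of Amd2, a near-identical gene on the same chromosome that has no row among those used here, so the low count does not show that Amd1 was not expressed.

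Sat1, the acetyltransferase that starts polyamine breakdown, lies on chromosome X at 155213132 to 155216449 on the minus strand. It stood at 77.7, 89.6, 51.2 and 65.4 CPM in fasted libraries 1, 3, 4 and 5, against 41.0, 63.9, 78.7 and 54.5 CPM in fed libraries 1, 3, 4 and 5. Acinar-poor fasted library 3 was the highest of the 8, fasted library 1 lay just below fed library 4, and fasted library 4 was below 3 of the fed ones. The means were 71.0 ± 16.4 CPM in fasted and 59.5 ± 15.9 CPM in fed libraries (SD, n = 4 each), and the log2 fold change was 0.25 with an SE of 0.27 (edgeR, Benjamini-Hochberg adjusted p = 1.00) with a 95% interval of the ratio from 0.793 to 1.78. Without fasted libraries 1 and 3 it was -0.03 ± 0.33.

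**Figure D3:**
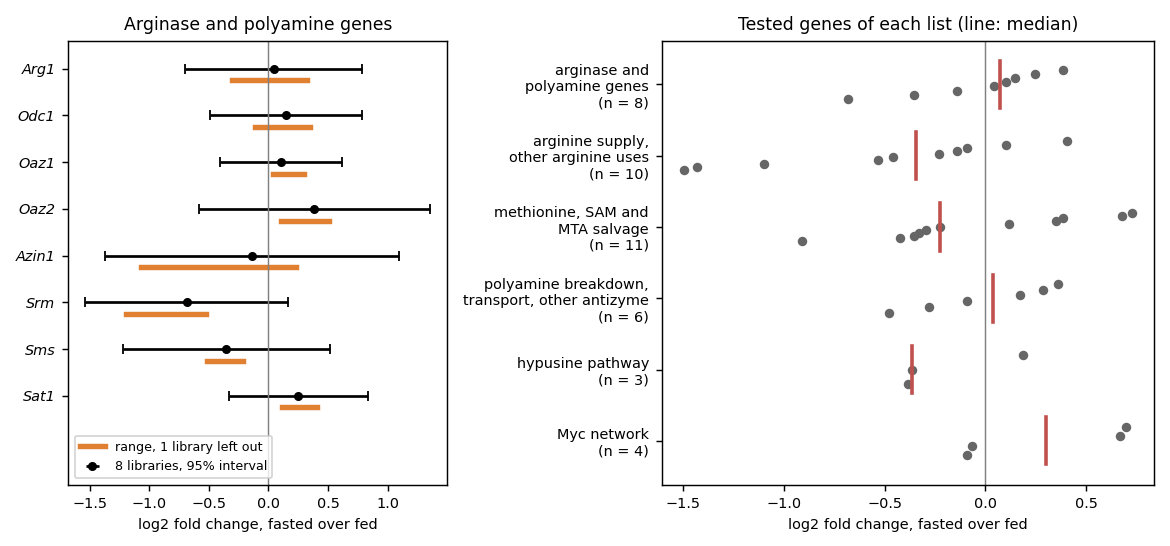
Left, log2 fold change of fasted over fed for each tested gene with its 95% interval (black) and the range of values when 1 library is left out (orange). Right, the log2 fold change of every tested gene of the members and of 5 wider lists (grey points) with the median of each list (red line). All 8 intervals on the left include 0.

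Ratios of members within a library do not depend on how libraries are scaled, and 3 were computed: Odc1 to its antizyme Oaz1, the inhibitor Azin1 to Oaz1, and the synthase Srm to the breakdown enzyme Sat1. The log2 ratio of Odc1 to Oaz1 was 0.40, -0.45, 0.29 and -0.31 in fasted libraries 1, 3, 4 and 5, against -0.40, 0.22, 0.67 and -0.72 in fed libraries 1, 3, 4 and 5. The fasted values lay within the fed range, and the means were -0.02 ± 0.43 in fasted and -0.06 ± 0.62 in fed libraries (SD, n = 4 each). The log2 ratio of Azin1 to Oaz1 was -4.07, -4.55, -1.45 and -3.92 in fasted libraries 1, 3, 4 and 5, against -2.79, -3.08, -1.98 and -4.02 in fed libraries 1, 3, 4 and 5, and library 4 was again highest in each group.

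The log2 ratio of Srm to Sat1 was -0.65, -0.995, 0.13 and 1.04 in fasted libraries 1, 3, 4 and 5, against 0.64, 0.78, 0.90 and 1.33 in fed libraries 1, 3, 4 and 5. Fasted libraries 1, 3 and 4 lay below every fed one, and fasted library 5 was above all but fed library 5. The ratio averaged -0.12 ± 0.91 in fasted and 0.91 ± 0.30 in fed libraries (SD, n = 4 each), a difference of -1.03, which was -1.42 without fasted library 5 and -0.74 without fasted library 3. The groups overlapped. As the members had been chosen with earlier results known, these ratios are given without a test.

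**Figure D4:**
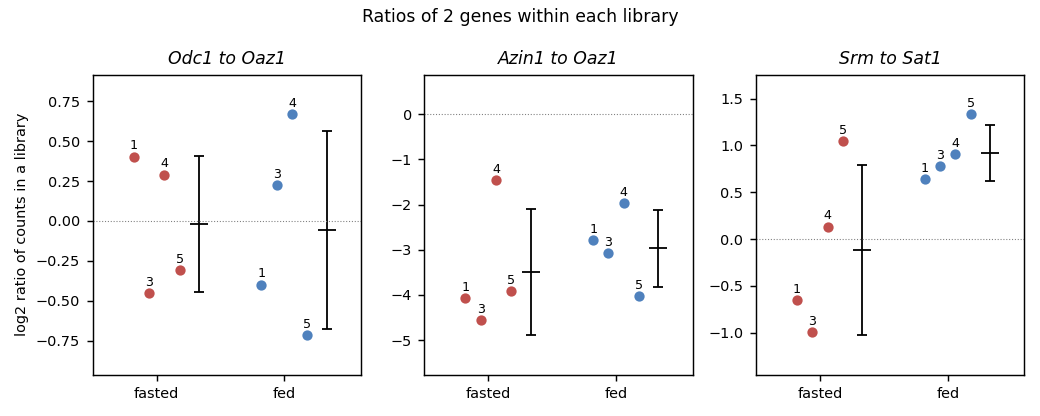
Log2 ratio of the counts of 2 genes in each library, with 0.5 added to each count. Numbers name the libraries, bars are the mean and SD of 4 libraries, and the Srm to Sat1 ratio was below every fed library in fasted libraries 1, 3 and 4.

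The members did not share a single pattern over the libraries. The likeness of 2 genes was measured as the root-mean-square difference of their log2 levels over the 8 libraries, each gene centred on its own mean. Among the 8 genes the closest were Odc1 and Sat1 at 0.32, then Odc1 and Oaz2 at 0.33, and the farthest were Oaz2 and Azin1 at 1.05. Arg1 and Odc1, consecutive enzymes, stood 0.70 apart, close to the median distance of a tested gene from Odc1, which was 0.68. The genes nearest to Arg1 among all tested were Camk4, Pak4, Ndufa8, Abhd6 and P2rx4, from 0.20 to 0.25 apart. Those nearest to Odc1 were Ilf2, Psph, Snrnp25, Sh3pxd2a and Rpp14, from 0.16 to 0.20 apart. They are the smallest distances out of 7700 tested genes over only 8 libraries, and whether they mean more than that was not tested. Some were scarce, such as P2rx4 at 5.38 CPM in fasted and 6.15 CPM in fed libraries and Psph at 3.71 and 3.30 CPM.

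Around the members, 51 further genes of arginine, methionine, polyamine and hypusine metabolism and of the Myc network were listed by role, of which 47 had a row and 34 could be tested. By edgeR 0 of the 34 were called and 0 had an unadjusted p under 0.05, where 4.39% of all tested genes did. Their groups did not overlap in 0 cases, against 3.52% of all tested genes. Of the 34, 13 had a positive and 21 a negative log2 fold change, with a median of -0.12. Over all tested genes 3835 were positive and 3865 negative, with a median of -0.00. The median of the listed genes was 0.03 without fasted libraries 1 and 3 and 0.096 without fed library 4. By library totals alone it was 0.35, where that of all genes was 0.51. DESeq2 and limma-voom also called 0. At an unadjusted p under 0.05 there was 1 of the 34 by DESeq2 (Slc25a15), against 4.58% of all tested genes, and 3 by limma-voom (Slc7a1, Gamt and Gatm), against 9.47%. With the replicate block 0 were called and 4 of the 34 had an unadjusted p under 0.05 (Slc7a1, Mri1, Gamt and Gatm), against 6.95% of all tested genes.

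Arginine supply and other uses of arginine had 10 tested genes, 2 positive and 8 negative, with a median of -0.34. The mitochondrial ornithine carrier gene Slc25a15 had the smallest p of all 34. It stood at 6.55, 5.27, 3.69 and 2.46 CPM in fasted libraries 1, 3, 4 and 5, against 8.92, 4.19, 9.02 and 16.8 CPM in fed libraries 1, 3, 4 and 5. Fed library 3 lay within the fasted range, and the log2 fold change was -1.10 ± 0.51 (SE; edgeR, unadjusted p = 0.0521, Benjamini-Hochberg adjusted p = 1.00). It was -1.64 ± 0.67 without the acinar-poor fasted libraries, -1.53 ± 0.62 with the acinar covariate (edgeR, unadjusted p = 0.0342 and 0.0303, adjusted p = 1.00 for each) and -1.02 ± 0.57 with the replicate block. Without those libraries 267 of 8995 tested genes had an unadjusted p under 0.05, and with the covariate 311 of 7700 did. Pycr1 of the same list, not tested in the main fit, was at 1.98 ± 0.69 without those libraries (SE; edgeR, unadjusted p = 0.0162). The arginine importer gene Slc7a1 had a log2 fold change of -0.53 ± 0.35, of -0.05 ± 0.33 without the acinar-poor fasted libraries and of -0.64 ± 0.25 with the replicate block (SE; edgeR, unadjusted p = 0.0347, adjusted p = 0.71). Slc3a2, the shared heavy chain of several amino acid transporters and among the 2 most abundant genes listed, was at 561 ± 34.7 CPM in fasted and 522 ± 93.2 CPM in fed libraries (SD, n = 4 each). Arg2, the mitochondrial arginase, had 2 counts in all 8 libraries.

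The creatine synthesis genes Gatm and Gamt, chosen after their values were seen, had the lowest log2 fold changes of the list, at -1.50 ± 1.23 and -1.43 ± 1.02 (SE; edgeR, Benjamini-Hochberg adjusted p = 1.00 for each). Gatm stood at 0.94, 0.59, 45.5 and 10.05 CPM in fasted libraries 1, 3, 4 and 5, against 14.3, 32.7, 91.9 and 21.2 CPM in fed libraries 1, 3, 4 and 5. Both fasted libraries poor in acinar RNA were near 0 for it, and without them the log2 fold changes of Gatm and Gamt were -0.52 ± 0.74 and -0.53 ± 0.60. With the replicate block they were -2.41 ± 0.80 for Gatm (SE; edgeR, unadjusted p = 0.0213, adjusted p = 0.71) and -2.10 ± 0.43 for Gamt (unadjusted p = 0.0014, adjusted p = 0.47).

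The hypusine pathway uses spermidine to modify the translation factor eIF5A. Eif5a itself, the most abundant of the listed genes, stood at 788, 821, 638 and 834 CPM in fasted libraries 1, 3, 4 and 5, against 1086, 805, 919 and 1161 CPM in fed libraries 1, 3, 4 and 5. Only fed library 3 reached down into the fasted range, and the log2 fold change was -0.37 ± 0.20 (SE; edgeR, unadjusted p = 0.0960, Benjamini-Hochberg adjusted p = 1.00). The enzymes that make hypusine, Dhps and Dohh, had log2 fold changes of -0.39 ± 0.61 and 0.19 ± 0.54.

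Of the 11 genes of methionine, S-adenosylmethionine and methylthioadenosine salvage, all tested, 5 were positive and 6 negative, and Mri1, an isomerase of methylthioadenosine salvage, had the smallest p of them with a log2 fold change of 0.68 ± 0.45. Of 6 tested genes of polyamine breakdown and transport 3 were positive and 3 negative, and the spermine oxidase gene Smox was at -0.09 ± 0.40. In the Myc network, which includes known activators of Odc1, Myc was at -0.09 ± 0.44 and its antagonist Mnt at 0.70 ± 0.38. None of these had an unadjusted p under 0.05 in the main edgeR fit. With the acinar covariate the methionine list genes Ahcy and Mat2a did, at 1.11 ± 0.35 and -0.57 ± 0.25 (SE; edgeR, unadjusted p = 0.0081 and 0.0414). In that fit 311 of 7700 genes did. Ahcy was at 1.22 ± 0.45 without fasted libraries 1 and 3 (edgeR, unadjusted p = 0.0214, where 267 of 8995 genes passed). With the replicate block Ahcy was at -0.13 ± 0.43, and Mri1 had an unadjusted p of 0.0459 by edgeR. These fits called 0 genes.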

How the data were processed

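The labels' protocols name Trizol for the RNA and CEL-seq2, a barcoded 3' end method, for the libraries. The submitters' processing notes name STAR, edgeR and mm10. The authors deposited raw counts per gene. Nothing used here says whether they count reads or unique molecules. Each of the 4 sequencing files mixes both treatments, so column names gave the groups, and 2 columns were not used. Counts of 11 spike-in rows were left out.

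Genes were tested in R 4.3.3 with edgeR 4.0.16 (filterByExpr, TMM, robust quasi-likelihood, no covariates, Benjamini-Hochberg over 7700 genes, threshold 0.05, two-sided). DESeq2 1.42.0 and limma 3.58.1 (voom) were alternatives, and SciPy 1.17.1 gave the permutation tests. Scripts were tested on simulated data. The common biological coefficient of variation was 0.506. Within a group, each pair of libraries differed by more than counting noise (lowest chi-square per gene 13.6).

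The numbers of the columns were taken to pair libraries only in the pair comparisons and the replicate block, and the main test did not use them. Deviations from group means correlated at 0.23, 0.14, 0.50 and 0.13 for numbers 1, 3, 4 and 5. Fasted 5 with fed 4 (0.22) and fasted 3 with fed 1 (0.20) did so as well, and no label explains the numbers. Members, lists and alternatives were chosen with earlier results of these data known. The text names all members, the 5 listed genes with the smallest p, the 2 most abundant, and the 5 nearest to Arg1 and Odc1 in pattern. Arg2, Dhps, Dohh, Smox, Myc, Gatm, Gamt, Ahcy, Mat2a and Pycr1 were named outside that rule, after their values were seen. The islet markers Ttr, Pcsk1, Ins1 and Ins2, the ILC2 marker Rora and the macrophage marker Csf1r were also named after their values were seen.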

Additional observations from a re-analysis of the deposited data

Results flagged for a closer look

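In 5 of the 16 sets of 4 libraries (8 genes in 2 groups), 1 library stood apart from the other 3 by more than the 95% critical value of Dixon's test, which chance passes in about 1 in 20 sets. Odc1 was at 253 CPM in fasted library 1, against at most 154 CPM in the other fasted libraries. Oaz2 was at 10.99 CPM in the same library, against at most 5.90 CPM in the others. Azin1 was at 45.9 CPM in fasted library 4, against at most 11.2 CPM in the others. Srm was at 135 CPM in fasted library 5, against at most 56.2 CPM in the others. Oaz1 was at 214 CPM in fed library 5, against at most 142 CPM in the other fed libraries.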

How the results depend on the processing

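Of 174 values of the 8 tested members under 22 alternatives, 154 kept their direction, 20 turned and 0 were called (lowest adjusted p 0.52). By edgeR 0 of all genes were called (338 at an unadjusted p under 0.05), but DESeq2 called 8 (6 higher, 2 lower), library totals alone 1 (Chac1) and no filter on low counts 1; with the replicate block it was 0, which changed no call. Library totals alone moved the median of all genes to 0.51 and turned Azin1 to 0.10 and Sms to 0.16. The acinar covariate turned Odc1 to -0.022, Oaz1 to -0.032 and Azin1 to 0.35. Without fasted libraries 1 and 3, Odc1 was at -0.069, Oaz1 at -0.084, Azin1 at 0.46 and Sat1 at -0.032. Thinning to 1797504 counts put Oaz2 at -0.091 and Sms at 0.072. Scaling to ILC2 markers, chosen after seeing the data, turned none of the members. The cause of these turns was not tested. With 1 library left out, the count of called genes was 0 throughout, Arg1 ran from -0.31 to 0.32, Odc1 from -0.11 to 0.35 and Azin1 from -1.07 to 0.23. Oaz1 ran from 0.03 to 0.30, Oaz2 from 0.10 to 0.50, Srm from -1.20 to -0.53, Sms from -0.52 to -0.21 and Sat1 from 0.11 to 0.41. Oaz2 and Sms, with 129 to 186 counts in a group, are limited by depth.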
